A study of Mus musculus with 7 samples.

Results

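Conventional dendritic cells (cDCs) were examined in 7 single-cell RNA libraries of mouse liver. The members, called cDC-like, were chosen by their measured counts of unique molecular identifiers (UMIs, each standing for 1 captured RNA molecule). Each had more than 1000 UMIs with at most 20% from mitochondrial genes (a quality barcode), and its base was the UMIs that remained after mitochondrial and haemoglobin genes were set aside. At least 2% of the base had to come from the class II genes H2-Aa, H2-Ab1 and H2-Eb1 and from Cd74, at least 2 UMIs from Flt3, Xcr1, Clec9a, Cd209a, Naaa and Ifi205 together, less than 0.5% of the base from C1qa, C1qb and C1qc, and no UMI from the B cell genes Cd79a and Cd79b or the plasmacytoid dendritic cell genes Siglech and Ccr9. The rule kept 348 of 100676 quality barcodes, 0.346% (exact 95% binomial interval 0.310 to 0.384). Since these genes chose the members, their levels below are a description and were not tested.

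The libraries come from a study of a hepatoblastoma-like liver cancer in Alb-Cre;CAG-MYC (ABC-Myc) mice, in which Cre recombinase under the albumin promoter switches on human MYC in hepatocytes, and from healthy livers of control littermates. All 7 libraries carry the same label, a murine hepatoblastoma model in liver, and no label says which mouse was healthy, so no library was put in a group and no tumour was compared with a healthy liver. The text of the study speaks of NEJ634, NEJ687, NEJ709 and NEJ723 as tumours, a status not used here. The design text speaks of single nuclei and the sample labels of single cells. The genotype, age and sex of each mouse are not among the labels, and the tissue was dissociated with collagenase, so the members are the cDCs that came through that step. Each library is 1 sample with no replicate, and intervals below are exact, at 95%, and cover counting error only.

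Dendritic cells take up material from their surroundings, cut its proteins into peptides and show them to T cells on MHC molecules. The conventional lineage depends on the Flt3 receptor and has a pair of main branches. cDC1 carry the chemokine receptor Xcr1 and Clec9a, a receptor for dead cells, depend on the transcription factors Irf8 and Batf3, and are known for showing antigens taken from other cells to CD8 T cells. cDC2 carry Sirpa and, in many tissues, the lectins Cd209a and Clec10a, and are known for priming CD4 T cells. Both branches can mature, which brings up Ccr7, the receptor that guides them to lymph nodes, together with co-stimulatory molecules. In the liver they sit mostly around the portal tracts.

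The class II genes that define the members share promoter elements, of which the Y box (GATTGG, bound by NF-Y) lies nearest to the start site. Of the 9 H2 genes in the class II list, 8 were matched by symbol to a RefSeq promoter window of 300 bases (250 before and 50 after the start, build GRCm38.p6), and all 8 held GATTGG on either strand, against 18.2% of all 27025 genes with a window. H2-Ab1 was not matched. The 120 bases before the start of 4 of them are shown, 5′ to 3′ on the gene's strand, because these genes encode the class II chains themselves and the DM and DO proteins that load and edit their peptides. Capitals mark matches to GATTGG on either strand. The windows are chr17:34287824-34287943 on the minus strand for H2-Aa, and on the plus strand chr17:34305747-34305866 for H2-Eb1, chr17:34153071-34153190 for H2-DMb1 and chr17:34092259-34092378 for H2-Oa.
H2-Aa: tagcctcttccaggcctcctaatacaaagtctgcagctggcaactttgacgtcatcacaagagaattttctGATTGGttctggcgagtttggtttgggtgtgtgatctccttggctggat
H2-Eb1: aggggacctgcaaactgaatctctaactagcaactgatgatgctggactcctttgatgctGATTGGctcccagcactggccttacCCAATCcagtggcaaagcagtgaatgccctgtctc
H2-DMb1: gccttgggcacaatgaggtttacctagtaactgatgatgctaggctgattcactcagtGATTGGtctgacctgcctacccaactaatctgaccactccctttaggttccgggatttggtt
H2-Oa: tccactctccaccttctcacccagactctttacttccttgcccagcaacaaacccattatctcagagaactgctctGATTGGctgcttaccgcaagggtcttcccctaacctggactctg
The first base of the match lay at -49 in H2-Aa, at -60 and, on the other strand, at -35 in H2-Eb1, at -62 in H2-DMb1 and at -44 in H2-Oa, counted from the start site. In the H2 genes not shown it lay at -58 in H2-Ob, -91 in H2-DMb2, -101 in H2-Eb2 and -199 in H2-DMa. Of the 11 genes of the whole class II list with a window, 9 held a match. A match is a description of the sequence and not evidence of binding in these cells.

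The libraries held 40214395 to 132485391 UMIs in all barcodes. NEJ634 stood apart with 40660 quality barcodes at a median of 1640 UMIs, while the other libraries had 5674 to 21482. A label of NEJ709 carries the name NEJ634, and libraries are named here by their titles. Among quality barcodes, 5 members shared a barcode sequence with a barcode of another library and 0 with another member. Free RNA was estimated from barcodes ranked 45000 to 90000 by UMIs, called ambient below. In NEJ634 these averaged 570 UMIs and in NEJ723 324, against 76.6 to 135 in NEJ638, NEJ654, NEJ677 and NEJ687, so that they can hold cells. Barcodes of at most 100 UMIs gave another estimate, which is given beside the first for counts of genes and sums of markers.

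cDC-like barcodes were found in all 7 libraries, as 78 of 6377 quality barcodes in NEJ638 (1.22%, interval 0.968 to 1.52), 55 of 5674 in NEJ654 (0.969%, 0.731 to 1.26) and 55 of 6846 in NEJ677 (0.803%, 0.606 to 1.04). The share was 0.451% in NEJ687 (34 of 7531, 0.313 to 0.630), 0.363% in NEJ723 (44 of 12106, 0.264 to 0.488), 0.180% in NEJ634 (73 of 40660, 0.141 to 0.226) and 0.0419% in NEJ709 (9 of 21482, 0.0192 to 0.0795). The intervals of NEJ638, NEJ654 and NEJ677 lay above those of NEJ723, NEJ634 and NEJ709. A share depends on every other barcode kept, so fewer cDCs and more of other barcodes cannot be told apart. The members' median depth ran from 2170 UMIs in NEJ634 to 12446 in NEJ709.

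**Figure D1:**
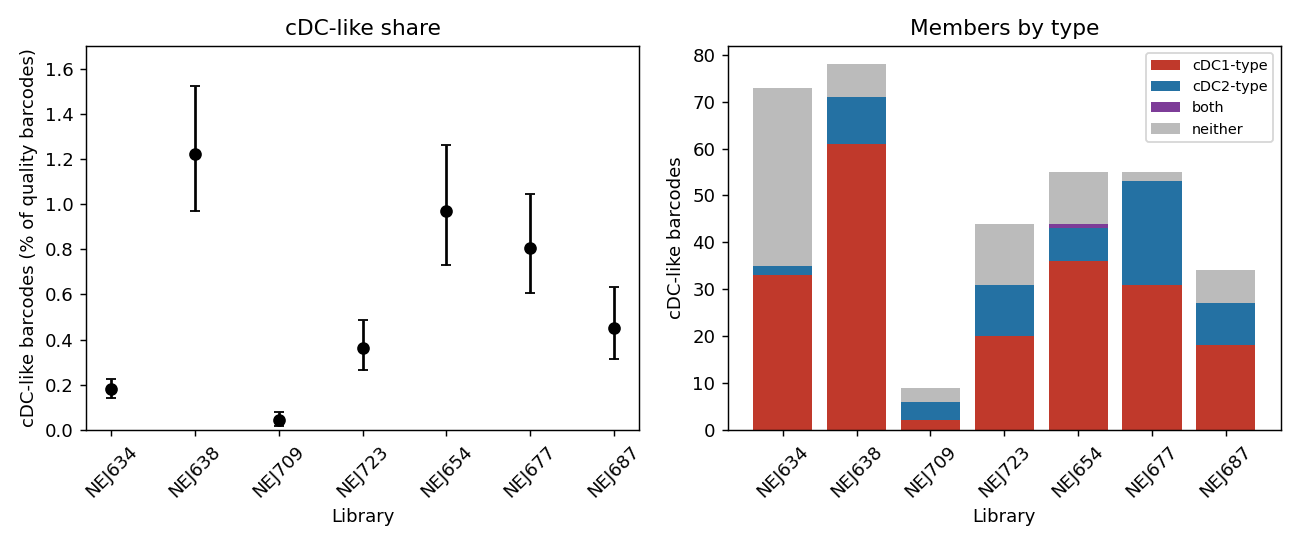
The left panel shows the percentage of quality barcodes that were cDC-like in each library, with exact 95% binomial intervals, and the right panel the number of members of each type. The share ran from 0.0419% in NEJ709 to 1.22% in NEJ638, and 38 of the 73 members of NEJ634 had neither a cDC1 nor a cDC2 typing gene.

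The class II share of the base reached 9.43% among members, with a median of 3.68%. Just inside the limit lay 42 members at 2 to 2.5%, and 34 barcodes that met every other limit lay just outside it at 1.5 to 2%. Of the members, 59 had exactly 2 UMIs of the 6 dendritic cell genes, while 94 barcodes were left out with 1. The genes of B and plasmacytoid dendritic cells left out 42 barcodes that met every other limit, of which 30 had a single such UMI.

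Levels are given as UMIs of a gene per 1000000 base UMIs (CPM), over the summed members of a library, and a range or median over libraries leaves out NEJ709, which had only 9 members. H2-Ab1, the beta chain of class II, was at 9218 CPM in NEJ687, 8878 in NEJ638, 8661 in NEJ654, 8643 in NEJ677, 7603 in NEJ634 and 5957 in NEJ723, and at 6846 in NEJ709. The 348 members all had a UMI of it, and ambient levels had a median of 133 CPM (268 in barcodes of at most 100 UMIs). NEJ723 was lowest, with an interval of 5716 to 6204 CPM. H2-Aa, the alpha chain of the same molecule, varied less, from 5830 CPM in NEJ654 to 7413 in NEJ638. H2-Eb1 was lowest in NEJ723 at 6662 CPM and highest in NEJ638 at 10543, and Cd74, the invariant chain that chaperones class II, reached 22497 CPM in NEJ687.

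The rule did not use the rest of the class II pathway. The list held 15 genes, 14 of them measured, and 1 of these, Cd52, is a surface glycoprotein with no known part in peptide loading. Without the 4 genes of the rule, 9 of 10 were at a median of at least 50 CPM, against 16.7% of all 14359 other genes with a UMI in members, and 8 of 10 were above ambient in 6 of 6 libraries, against 3.64% (7 of 10 and 2.51% with barcodes of at most 100 UMIs). Ciita, the transactivator that class II promoters require, was at 167 CPM in NEJ677, 120 in NEJ654, 97.0 in NEJ634, 95.2 in NEJ723, 54.5 in NEJ638 and 49.3 in NEJ687. The interval of NEJ677, 132 to 209, lay above those of NEJ638 and NEJ687. Its median in B-type barcodes was 15.6 CPM and in monocyte-type barcodes 1.94 CPM. H2-DMa, which with H2-DMb1 exchanges peptides on class II, was at 479 to 884 CPM, and H2-DMb1 at 299 to 651. H2-Oa and H2-Ob, which restrain that exchange and are best known in B cells, were at 38.6 to 154 and at 44.5 to 164 CPM, against ambient medians of 2.75 and 8.33. H2-Eb2 was near the floor, with 16 UMIs in 10 members.

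The lineage genes that entered the rule were present in every library. Flt3, the receptor for the growth factor of the lineage, was at 172 CPM in NEJ677, 165 in NEJ723, 158 in NEJ634, 148 in NEJ687, 120 in NEJ654 and 119 in NEJ638. The widest interval was 112 to 216 CPM, in NEJ634. Its median was 92.1 CPM in plasmacytoid-type and 18.2 in monocyte-type barcodes.

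Xcr1 was at 280 CPM in NEJ638 (interval 232 to 335), 167 in NEJ677, 155 in NEJ654, 125 in NEJ634, 120 in NEJ687 and 56.6 in NEJ723 (35.5 to 85.7). Clec9a had the same order of these 6 libraries, with 258 CPM in NEJ638 and 64.3 in NEJ723. Naaa, a lysosomal amidase high in cDC1, was steadier, from 425 CPM in NEJ723 to 643 in NEJ634. Ifi205, an interferon-inducible gene, was highest in NEJ638 at 462 CPM and lowest in NEJ687 at 185. Cd209a ran from 20.2 CPM in NEJ634, where 2 members held its 5 UMIs, to 117 in NEJ677.

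**Figure D2:**
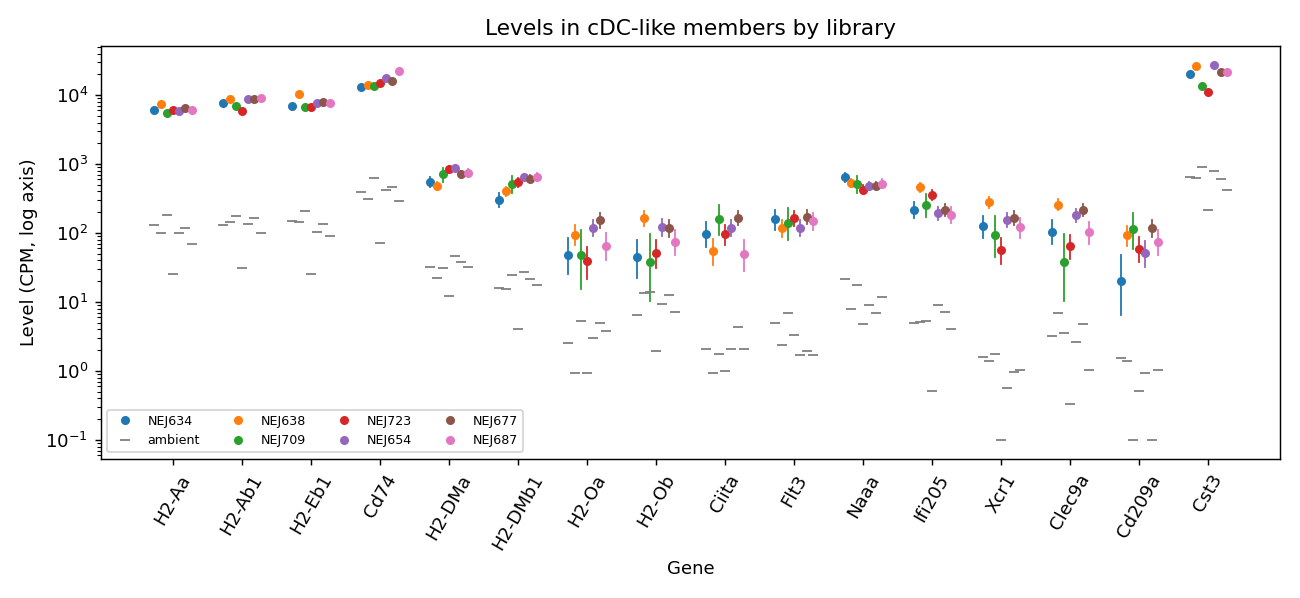
Levels of class II, lineage and rule genes in CPM on a log axis, by library, with exact 95% Poisson intervals as lines and ambient levels as grey dashes, the lowest of them drawn at 0.1. The class II chains and Cst3 lie well above ambient in each library, while Xcr1, Clec9a and Cd209a spread most between libraries.

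The branch genes rarely occurred in the same barcode. Xcr1 was detected in 140 members, Clec9a in 161 and both in 99, while Cd209a was detected in 66 members, of which 1 also had Xcr1 and 0 also had Clec9a. Members with Xcr1 or Clec9a and no Cd209a were called cDC1-type, and those with Cd209a and neither of the others cDC2-type. This gave 201 cDC1-type, 65 cDC2-type, 1 with both and 81 with neither. The 81 untyped members had a median of 3842 UMIs, against 7695 for cDC1-type, and 38 of them were in NEJ634. Of the members with a type, the cDC1-type share was 94.3% in NEJ634 (33 of 35, interval 80.8 to 99.3), 85.9% in NEJ638 (61 of 71, 75.6 to 93.0) and 83.7% in NEJ654 (36 of 43, 69.3 to 93.2). It was 66.7% in NEJ687 (18 of 27, 46.0 to 83.5), 64.5% in NEJ723 (20 of 31, 45.4 to 80.8), 58.5% in NEJ677 (31 of 53, 44.1 to 71.9) and 2 of 6 in NEJ709. The interval of NEJ634 lay above those of NEJ677, NEJ723 and NEJ709, that of NEJ638 above that of NEJ677, and the other pairs overlapped. A type rests on detected UMIs and so depends on depth. The median member had 2170 UMIs in NEJ634, 7807 in NEJ677 and 9018 in NEJ723. With each member thinned to 1000 UMIs, the median cDC1-type share over libraries was 88.2% in place of 75.2%. The part of depth in these differences was not tested. The member rule counts 4 genes of cDC1 (Xcr1, Clec9a, Naaa and Ifi205) and 1 of cDC2, which favours the first branch, so these shares are not the makeup of the liver's cDCs.

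Levels were then compared between the types in the 3 libraries with at least 10 members of each (NEJ638 with 61 and 10, NEJ723 with 20 and 11, NEJ677 with 31 and 22). A gene was called where it differed at least 4-fold, with 10 CPM added to each level, the same way in all 3. Of 2926 genes at 50 CPM or more in either type, 21 (0.718%) were higher in cDC1-type and 42 (1.44%) in cDC2-type members. The first count includes Xcr1 and Clec9a and the second Cd209a, which made the types. With no group of replicates there was no test.

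The genes called for cDC1-type members included the following. Irf8, the transcription factor cDC1 depend on, was at 374 CPM in cDC1-type members of NEJ638, 738 in NEJ723 and 1030 in NEJ677, against 0, 63.8 and 54.7 CPM in cDC2-type members. Tlr3, the endosomal sensor of double-stranded RNA, was at 140, 143 and 213 CPM against 0, 0 and 7.81. Cadm1, an adhesion molecule used to recognise cDC1, was at 354, 107 and 210 CPM against 0, 0 and 39.1. For each of these 3 genes the lowest cDC1-type value was above the highest cDC2-type value.

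Ppt1, a lysosomal thioesterase, had a pooled level of 958 CPM in cDC1-type and 33.0 in cDC2-type members, and Rab7b, a small GTPase of late endosomes, 228 and 16.5. Txndc16 had the largest median difference, 5.05 on the log2 scale, with 389 UMIs in cDC1-type members of NEJ638 and 63 and 62 in NEJ723 and NEJ677, against 0, 0 and 2 UMIs. Ifi205, Aif1, Snx22, Itgae (the alpha chain of the integrin CD103), Cd36 (a scavenger receptor), Agpat3, Plpp1, Gpr141b, Rtl8a, Rtl8b and Gm43914 made up most of the rest. The remaining 2, the histone genes Hist1h2ap and Hist1h2ae, were seen in 15 and 19 cDC1-type members, so their levels rest on few cells.

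The genes called for cDC2-type members included the following. Clec10a, a galactose-binding lectin, was at 111, 268 and 195 CPM in cDC2-type members of NEJ638, NEJ723 and NEJ677, against 2.86, 0 and 0 in cDC1-type members. Zeb2, a transcriptional repressor needed for cDC2, was at 389, 191 and 297 CPM against 8.57, 5.09 and 22.6. Il1b, the cytokine interleukin 1 beta, was at 2804, 2844 and 1539 CPM against 329, 311 and 304. Ptgs2, the inducible cyclooxygenase, reached a pooled 355 CPM against 7.01, and was detected in 14 of the 43 cDC2-type members.

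S100a4, a calcium-binding protein, had a pooled level of 1633 CPM in cDC2-type and 61.9 in cDC1-type members, and Cybb, the catalytic subunit of the phagocyte oxidase, 532 and 21.0. Tmem176b, Tnip3, Clec4b1, Nfkbiz, Emb, Ccrl2, Tnfsf9, Slc7a11 and Cdkn1a were also among the 15 largest median differences of the called genes, which the typing gene Cd209a led and Il1b did not reach. Sirpa, the receptor that marks the branch, was at a pooled 157 CPM against 10.5, and Itgam (CD11b) at 124 against 2.34. Several of these genes are also expressed by monocytes: the median of S100a4 was 1740 CPM and that of Cd14 1129 CPM in monocyte-type barcodes. Cd14, also called for cDC2-type, was at 956 CPM in cDC2-type and 122 in cDC1-type members of the 4 libraries the call did not use. Ly6c2, which defines classical monocytes, was at 222, 38.3 and 46.9 CPM in cDC2-type members, with 8, 3 and 6 UMIs. Its median was 865 CPM in monocyte-type barcodes. Ly6c2 was among the genes that chose those barcodes, so a high level there follows from the choice. With no minimum level, 6 of 15 monocyte markers were higher in cDC2-type members in all 3 libraries and 0 in cDC1-type members, with a median of -0.80, and so were 7 of 16 genes of handling stress, with 0 in cDC1-type members and a median of -0.37, against 8.23% of all genes. The part of monocytes and of handling in the cDC2-type levels was not tested.

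**Figure D3:**
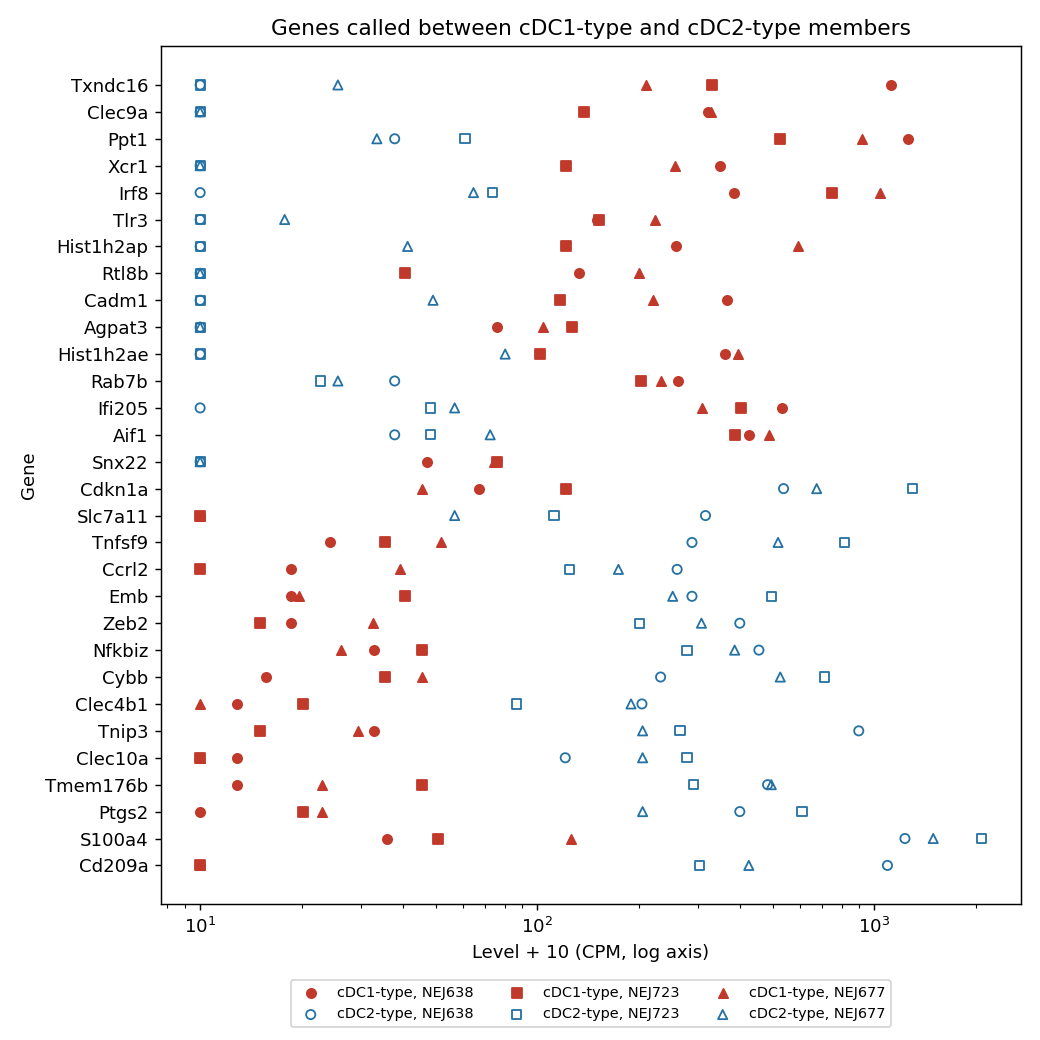
Levels plus 10 CPM, on a log axis, of the 15 called genes with the largest median difference in each direction, in cDC1-type (filled) and cDC2-type (open) members of the 3 libraries. Each gene keeps its direction in all 3 libraries, as the rule for calling requires, and many cDC2-type values of the cDC1 genes are at 0.

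The called genes were looked at in the 4 libraries the call did not use, with 89 cDC1-type and 22 cDC2-type members together. Without the typing genes and Ifi205, which the member rule used, 18 of 18 genes called for cDC1-type went the same way and 17 by at least 4-fold, against 2.19% of all tested genes. For cDC2-type, 40 of 41 went the same way and 32 by at least 4-fold, against 2.97%. By library, the same direction was seen for 18 of 18 in NEJ634, NEJ654 and NEJ687 and 17 in NEJ709 for cDC1-type, against 47.2 to 54.7% of all tested genes. For cDC2-type it was 39 of 41 in NEJ687, 37 in NEJ709, 36 in NEJ654 and 25 in NEJ634, where only 2 members were cDC2-type, against 48.7%, 51.1%, 49.9% and 44.4% of all tested genes.

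Of the 20 listed cDC1 genes that the member rule did not use, 14 were tested between types, 8 were called higher in cDC1-type members, against 0.718% of all genes tested, and 0 in cDC2-type members. With no minimum level, 18 of 20 were higher in cDC1-type members in all 3 libraries, with a median of 2.34 on the log2 scale, against 12.4% of all 14359 genes with a UMI in members. Of the 24 cDC2 genes other than Cd209a, 18 were tested, 11 were called higher in cDC2-type members, against 1.44%, and 0 in cDC1-type members. With no minimum level, 13 of 24 were higher in cDC2-type members in all 3 libraries, against 8.23% of all genes. Irf4, a transcription factor of cDC2, was called in neither direction, at 11.4, 0 and 9.69 CPM in cDC1-type and 139, 12.8 and 62.5 in cDC2-type members, with 31 UMIs over all members. Batf3, the partner of Irf8, was called in neither direction, at 74.3, 112 and 258 CPM in cDC1-type and 55.5, 25.5 and 109 in cDC2-type members. Wdfy4, which cDC1 need to show antigens of other cells, was at 406, 412 and 543 CPM against 83.3, 25.5 and 242.

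The class II genes that the rule did not use were compared between the branches. With no minimum level and without the 4 genes of the rule, 5 of 10 were higher in cDC2-type members in all 3 libraries, against 8.23% of all genes, and 1 of 10 in cDC1-type members, against 12.4%, with a median of -0.17 on the log2 scale. Of the 9 tested, 0 were called, where 0.718% and 1.44% of all genes were, so that the count is near the background. The levels of the rule's own class II genes are a description. H2-Ab1 was at 8774, 5906 and 8219 CPM in cDC1-type and 8466, 5484 and 9591 in cDC2-type members of NEJ638, NEJ723 and NEJ677. Cd74 was somewhat higher in cDC2-type members, with differences of -0.24 to -0.55. Of the 17 genes of class I presentation, with no minimum level, 8 were higher in cDC1-type members in all 3 libraries, against 12.4% of all genes, and 5 in cDC2-type members, against 8.23%, with a median of 0.35 on the log2 scale. Of the 14 tested, Cybb was called, for cDC2-type members. Cst3, the protease inhibitor cystatin C, was 1.7 to 2.42 higher in cDC1-type members on the log2 scale and reached the 4-fold limit in some libraries only.

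Of the 23 listed genes of cell division, 14 were higher in cDC1-type members in all 3 libraries and 0 in cDC2-type members, with no minimum level, against 12.4% and 8.23% of all genes, and the list's median was 0.89 on the log2 scale. None of the 10 tested was called at 4-fold. Stmn1, a tubulin regulator high in dividing cells, was at 269, 311 and 300 CPM against 111, 128 and 133. Mki67, the proliferation marker Ki-67, was at 103, 107 and 129 CPM against 0, 89.3 and 125. Over all libraries, 40 of 201 cDC1-type members (19.9%, interval 14.6 to 26.1) and 9 of 65 cDC2-type members (13.8%, 6.53 to 24.7) had at least 3 UMIs of Mki67, Top2a, Ube2c, Birc5, Cdk1, Ccnb1 and Ccna2, a set and limit chosen after values were seen. These pooled shares mix libraries that hold the types in unlike numbers, so their intervals do not compare the types. In NEJ638 the counts were 13 of 61 cDC1-type and 0 of 10 cDC2-type members. They were 7 of 31 and 1 of 22 in NEJ677, and 2 of 20 and 3 of 11 in NEJ723. NEJ634 had 9 of 33 cDC1-type and 1 of 2 cDC2-type members, NEJ687 had 4 of 18 and 1 of 9, and NEJ654 had 4 of 36 and 2 of 7. In NEJ654 the summed level of these genes was 324 CPM in cDC1-type and 1164 in cDC2-type members. There 1 member held 84.5% of the cDC2-type UMIs. The median depth was 7695 UMIs in cDC1-type and 6303 in cDC2-type members. Ambient RNA held 336 to 1692 CPM of these genes (531 to 1867 in barcodes of at most 100 UMIs). Their sum in cDC1-type members was below ambient in NEJ638 (480 against 517), NEJ723 (290 against 825), NEJ654 (324 against 638) and NEJ687 (435 against 1692). It was above ambient in NEJ634 (1497 against 1167) and NEJ677 (523 against 336), but in NEJ677 below the 531 CPM of barcodes of at most 100 UMIs. Of the 23 listed genes, 1 was above ambient in 6 of 6 libraries. In several libraries 1 member held most of their UMIs. Among cDC1-type members its share was 82.5% in NEJ723, 70.8% in NEJ634 and 57.0% in NEJ687, and it was lower in NEJ638 (11.3%), NEJ677 (40.1%) and NEJ654 (47.7%). Among cDC2-type members of NEJ677, where 51 UMIs were counted, it was 80.4%, and of NEJ723, with 16 UMIs, 31.2%.

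Against other immune types, few genes stood out everywhere. Monocyte-type, C1q macrophage-type, plasmacytoid-type and B-type barcodes, each set by a few genes, were compared with the members in the 6 libraries. Of 4420 genes tested, 5 (0.113%) were at least 4-fold higher in members than in each of the 4 types in every library, namely Naaa, Xcr1, Cst3, Itgae and Ppt1. Naaa and Xcr1 are part of the rule. Itgae and Ppt1 were also called for cDC1-type members, which made up 201 of the 348 members, so they do not mark both branches. In the 4 libraries that call did not use, cDC2-type members had 0 CPM of Itgae and 54.5 of Ppt1. The cDC1-type members there had 125 and 725 CPM. Cst3 was at 11255 to 27133 CPM in members, with medians of 1954 in monocyte-type, 2099 in macrophage-type, 1832 in plasmacytoid-type and 477 in B-type barcodes. NEJ723 was the lowest for Cst3, and NEJ654 and NEJ638 the highest at 27133 and 26035 CPM. Itgae was at 38.6 to 149 CPM and at a median of at most 0.507 in each of the 4 types. Ppt1 was at 360 to 1100 CPM, against medians of 33.1 to 76.6.

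Of 17 measured genes shared by cDCs, without Flt3 of the rule, 10 were above ambient in 6 of 6 libraries, against 3.64% of all genes (9 and 2.51% with barcodes of at most 100 UMIs). Zbtb46, a transcription factor of the lineage, was at 12.3 to 97.2 CPM and seen in 80 members. Plbd1, a phospholipase-like lysosomal protein, was at 610 to 983 CPM, and Havcr2, the receptor Tim-3, at 117 in NEJ687 to 346 in NEJ638. Receptors for growth factors included Csf2rb, the shared chain of the GM-CSF receptor, at 82.0 CPM in NEJ654 to 526 in NEJ638. Csf1r, the receptor of macrophages and monocytes, was at 26.1 to 80.2 CPM, against a median of 791 CPM in C1q macrophage-type barcodes.

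Some cytokines rested on few members. Il12b, the p40 chain of interleukin 12 and 23, was at 218 CPM in NEJ677 (99 UMIs in 5 members, 66.7% of them in 1) and 226 in NEJ634, where 1 member held all 56 UMIs. It was at 46.2 CPM in NEJ687, 23.7 in NEJ638 and 8.86 in NEJ654, and 0 UMIs were counted in NEJ723 and NEJ709, which allows up to 9.49 and 34.9 CPM. Ccl4, a chemokine for T cells and monocytes, was at 1589 CPM in NEJ654, 1348 in NEJ723, 1194 in NEJ677 and 913 in NEJ687, and lower in NEJ634 at 202 and NEJ638 at 197. In NEJ723 a single member held 48.3% of the Ccl4 UMIs. Il6, Il10 and Il23a had 8, 2 and 4 UMIs over all members. Cd83 and Cd86, both known on activated dendritic cells, were at 291 to 828 and 116 to 251 CPM, while Cd274 (PD-L1) was at 7.72 to 36.4 CPM and above ambient in 0 of 6 libraries.

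Of the 348 members, 29 had at least 3 UMIs of Ccr7, Fscn1 and Ccl22 and were called mature-type, 9 of them in NEJ638, 7 in NEJ687, 6 in NEJ677, 4 in NEJ634, 3 in NEJ654 and 0 in NEJ723 and NEJ709. The share ran from 0 of 44 in NEJ723 (interval up to 8.04%) to 20.6% in NEJ687 (8.70 to 37.9). Of the 29, 15 were cDC1-type, 9 cDC2-type and 5 neither. The limit of 3 UMIs depends on depth, and the median base was 6695 UMIs in mature-type members and 6119 in the others. By library it was 7791 against 1960 in NEJ634, 12220 against 8010.5 in NEJ654 and 8405 against 7640 in NEJ677, but 6695 against 9324 in NEJ687 and 4406 against 5110 in NEJ638.

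Pooled over libraries, 34 of 2904 genes (1.17%) were at least 4-fold higher in mature-type members, Ccr7, Fscn1 and Ccl22 included, and 12 were at least 4-fold lower. Of the other 29 genes listed for mature and migratory dendritic cells, with no minimum level, 26 were higher, 2 lower and 11 at least 4-fold higher. Over all 12854 genes, 38.3% were higher and 34 genes were at least 4-fold higher. The list's median was 1.59 on the log2 scale, against -0.12 over all genes. Cd40, the receptor for T cell help, was at 106 CPM (25 UMIs in 11 of 29 members) against 8.34, and was higher in mature-type members in 5 of 5 libraries with at least 3 of them. Relb, an NF-kappaB subunit of mature dendritic cells, was at 183 CPM against 21.8, and both Relb and Tmem123, at 336 CPM, were higher in 5 of 5 libraries. Il4i1, an amino acid oxidase, was at 140 CPM against 2.32, but higher in 3 of 5 libraries, with 0 CPM in mature-type members of NEJ638 and NEJ654.

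Some of these levels rest on single members. Il12b was at 668 CPM against 12.5, but its 157 UMIs lay in 5 mature-type members, 42.0% of them in 1, and in 3 of 5 libraries it was higher in mature-type members. Of the 311 UMIs of the chemokine Ccl5, 87.5% lay in 1 member, and without it the level fell from 1323 to 175 CPM. With each of the 29 members left out in turn, an alternative added after the values were seen, 24 to 43 genes were called, and 14 of the 34 were called whichever was left out: Arl5c, Bcl2a1b, Bcl2l14, Ccl22, Ccr7, Cd40, Cxcl9, Glipr2, Il12b, Il4i1, Relb, Serpina3g, Tmem123 and Tspan3. Endothelial markers moved with the mature-type members, 11 of 11 being higher, against 38.3% of all genes, with 76.5% of their 264 UMIs in 3 members. T and NK cell markers did so too, with 11 of 15 higher, 2 of them at least 4-fold, and a median of 0.64 on the log2 scale. These 2 were Ccl5 and Il7r. Ccl5 is also listed for mature dendritic cells, and most of its UMIs lay in 1 member. Il7r had 17 UMIs in 6 mature-type members. Other lists went the other way. All 11 erythroid, 14 neutrophil and 14 hepatocyte and hepatoblast markers were lower in mature-type members, as were 21 of 23 genes of cell division. Over all 12854 genes, 7932 were lower. The part of these lists in the mature-type levels was not tested.

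**Figure D4:**
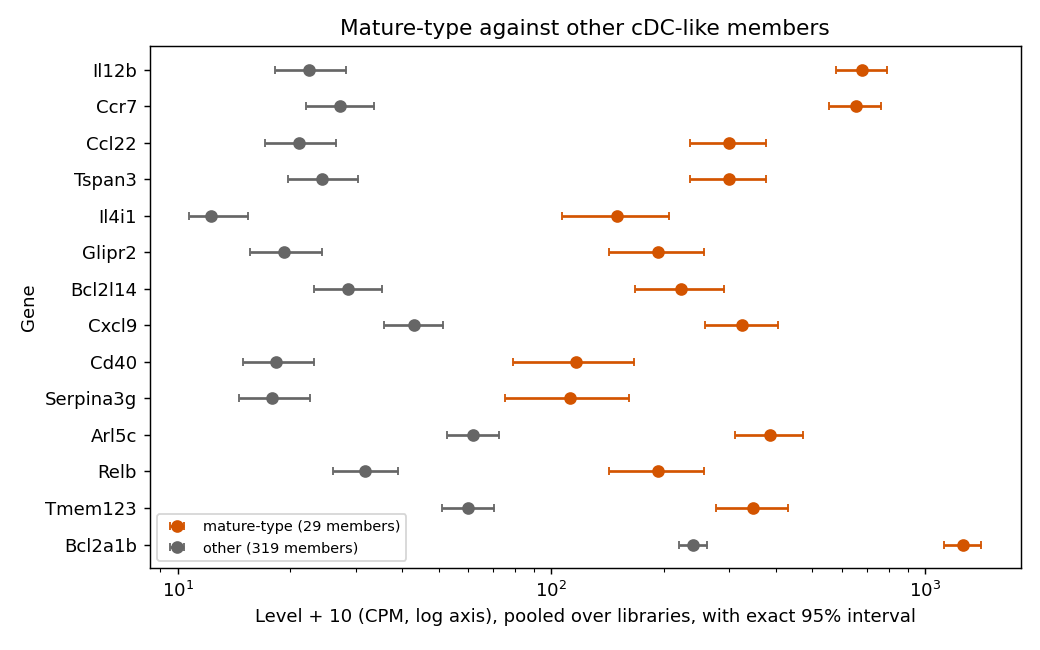
Levels plus 10 CPM, on a log axis with exact 95% Poisson intervals, in the 29 mature-type and all other members, pooled over libraries, for the 14 genes called whichever mature-type member was left out. Each gene was chosen for a difference of at least 4-fold in these same levels, so that the gap between the intervals follows from the choice. The other members include those of NEJ723 and NEJ709, which had no mature-type member. Ccr7 and Ccl22 are among the genes that made the type.

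Several of the genes that differed most between libraries are products of other cell types and were below ambient. Of genes at 100 CPM or more in a library, those with the widest ranges included S100a9, S100a8, Xist, Alb, Gdf15, Retnlg, Ngp, H19 and Dnase1l3. S100a9, a neutrophil protein, was at 2098 CPM in members of NEJ634 and 2.20 in NEJ677, and ambient RNA of NEJ634 held 9576 CPM. Alb, the hepatocyte product albumin, was at 494 CPM in NEJ654 and 3.08 in NEJ687, with 10660 CPM in ambient RNA of NEJ654. H19, an imprinted RNA of fetal liver, was at 562 CPM in NEJ634, against 3318 in ambient RNA, and at 0 in 3 libraries. Xist, made from the inactive X chromosome, was at 1214 CPM in NEJ638, above the 390 CPM of its ambient RNA and the 722 CPM of barcodes of at most 100 UMIs, at 566 in NEJ634 and 394 in NEJ654, and 0 UMIs were counted in NEJ723, NEJ677, NEJ687 and NEJ709. Of the Gdf15 UMIs in NEJ687, 99.1% lay in 1 member.

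Over the whole marker lists, neutrophil markers summed to 37.4 to 4907 CPM in members and 2975 to 24800 in ambient RNA (7846 to 56513 in barcodes of at most 100 UMIs), and 96.4% of the S100a8 and S100a9 UMIs of NEJ687 lay in 1 member. Hepatocyte and hepatoblast markers summed to 296 to 2631 CPM against 10337 to 43811 (6942 to 26560). Macrophage and Kupffer markers summed to 636 to 1322 CPM against 3826 to 13948 (6862 to 18004), and the C1q genes were limited by the rule. B cell markers summed to 41.2 to 109 CPM against 140 to 506 (431 to 2234 in barcodes of at most 100 UMIs), with 6 of 15 at 0 in every library, and T and NK cell markers to 51.5 to 900 CPM against 154 to 643. The latter were above ambient in NEJ687 alone (900 against 429), and in 0 of 6 libraries against barcodes of at most 100 UMIs, which held 446 to 1949 CPM. Their list includes Ccl5, which was at 4797 CPM in mature-type members of NEJ687 and at 52.3 CPM in its other members. Of the Ccl5 UMIs of all mature-type members, 87.5% lay in 1 member. Monocyte markers summed to 1006 to 2978 CPM against 810 to 3244, below ambient in NEJ634 (1718 against 3244) and NEJ638 (1006 against 1110) and above it in the other 4 libraries, but below the estimate from barcodes of at most 100 UMIs, 2061 to 3350 CPM, in all 6. Plasmacytoid dendritic cell markers summed to 254 to 535 CPM against 119 to 793 (282 to 1358 in barcodes of at most 100 UMIs). They were above both estimates in 2 of 6 libraries, NEJ723 (396 against 119 and 282) and NEJ687 (469 against 326 and 409). Bst2 and Irf7 had the highest levels of that list. Siglech, which defines plasmacytoid dendritic cells, was at 0 by the rule. Tcf4, their transcription factor, was at 24.3 to 64.3 CPM against a median of 1022 in plasmacytoid-type barcodes.

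To compare libraries within 1 branch, levels were taken over cDC1-type members in the 5 libraries with at least 20 of them, an analysis added after the values were seen. Of 1897 genes at 100 CPM or more in a library, 1072 were above ambient in their highest library with at most 25% of its UMIs in 1 member. Of these, 143 differed at least 4-fold between the highest and lowest library with intervals apart (138 of 893 with barcodes of at most 100 UMIs). NEJ638 was the highest for 81 of the 143 and NEJ723 the lowest for 64. These counts are a description, since the limits on level, ambient and single members were set on the highest library. Libraries also differed in depth, with 61 members and 350008 base UMIs in NEJ638 and 20 and 196411 in NEJ723. The same counts over all 1072 genes were not taken. Each library is 1 sample here.

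Serpinb9, an inhibitor of granzyme B, was at 351 CPM in cDC1-type members of NEJ638, 140 in NEJ634, 75.8 in NEJ654 and 58.1 in NEJ677, and had 0 UMIs in NEJ723 (up to 18.8 CPM). Serpinb6b, of the same inhibitor family, was at 240, 187, 160 and 100 CPM in those libraries and also at 0 UMIs in NEJ723. Cxcr4, the receptor for the chemokine Cxcl12, was at 549 CPM in NEJ638, 343 in NEJ634, 214 in NEJ723, 54.9 in NEJ677 and 52.5 in NEJ654. Id2, a transcriptional inhibitor that cDC1 need, was at 1846 CPM in NEJ638 and 490 in NEJ654, less than 4-fold apart, with intervals of 1706 to 1994 and 418 to 570.

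Other genes were highest in NEJ723, whose members also stood highest in the summed genes of handling stress, at 12510 CPM against 6858 to 8530 in the other 5 libraries. The part of handling in these levels was not tested. Socs3, an inhibitor of cytokine signalling, was at 188 CPM there (interval 133 to 260), and lower in the other 4, at 2.86 in NEJ638, 6.46 in NEJ677, 23.3 in NEJ654 and 23.4 in NEJ634. Fkbp5 and Tsc22d3, both known to respond to glucocorticoids, were at 158 and 148 CPM in NEJ723, with Fkbp5 at 2.86 to 39.0 and Tsc22d3 at 15.6 to 108 CPM in the other 4 libraries. Ccl4 was at 1889 CPM in NEJ654 and 1418 in NEJ677, against 203 in NEJ634 and 214 in NEJ638.

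**Figure D5:**
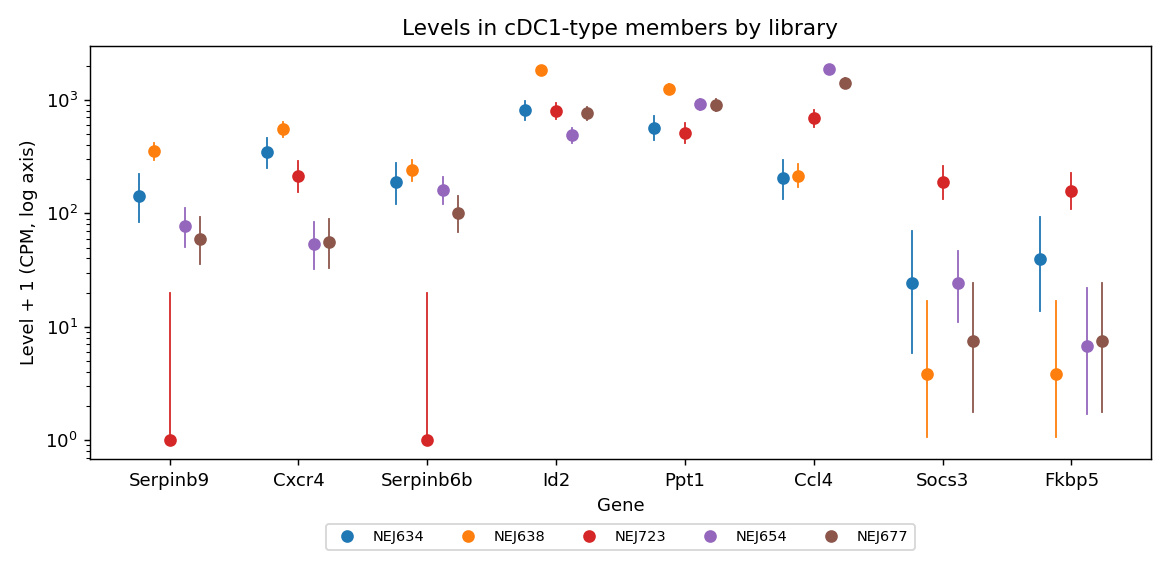
Levels plus 1 CPM, on a log axis with exact 95% Poisson intervals, of 8 genes in cDC1-type members of the 5 libraries with at least 20 of them. Serpinb9, Serpinb6b, Cxcr4, Id2 and Ppt1 are highest in NEJ638, Socs3 and Fkbp5 in NEJ723, and Ccl4 in NEJ654.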

How the data were processed

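The authors deposited raw UMI counts per gene and barcode, with every barcode kept and no normalization, for 7 libraries made with the 10x Genomics 3′ kit. The submitters' processing notes name Cell Ranger 6.0 and the file headers Cell Ranger 4, and the genome build is not given in the sources used here. The 32285 genes were the same in all files. The methods mention counting of introns.

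Counts were summed over cells and divided by base UMIs, the deposited counts without mitochondrial and haemoglobin genes. Members, comparator types and gene lists were chosen with earlier results of these data known. The labels give no groups, so no test was run, and no value measures the spread between mice. Intervals are exact Poisson or Clopper-Pearson at 95%, and cover counting error only. A type was compared by the rule of 4-fold with 10 CPM added, in genes at 50 CPM or more. That rule was tested on simulated data. Counts over lists without the genes of the member rule, the ambient estimate from barcodes of at most 100 UMIs and counts of genes called in 1 library alone were added after the values were seen. Genes were named as up to 6 of highest level in a list, the 15 largest differences in each direction, the genes above every comparator, the 10 widest ranges and the rule's genes, and others were chosen after their values were seen. A gene that this rule names is not reported here. B-type barcodes had at least 3 UMIs of Cd79a and Cd79b, plasmacytoid-type 2 of Siglech and Ccr9, C1q macrophage-type at least 0.5% of C1q, and monocyte-type 4 of Ly6c2, Ccr2, F13a1 and Chil3 with Csf1r, and a barcode meeting more than 1 of these rules was left out of each. Doublets were scored with Scrublet in scanpy 1.11.5, whose own threshold marked at most 0.0876% of barcodes and so had not worked. None were removed, and removal by rate was an alternative. Python 3.11.15, numpy 2.4.6 and scipy 1.17.1 were used.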

Additional observations from a re-analysis of the deposited data

Results flagged for a closer look

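Barcodes outside the members also held their signal. Above 500 and up to 1000 UMIs, 10 of 48810 barcodes met the other limits of the member rule, 3 each in NEJ634 and NEJ654. A further 5 quality barcodes missed the rule only because of their C1q genes, of which NEJ677 had 2. Neither set enters a comparison above.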

How the results depend on the processing

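The number of members moved most with the class II limit. At 4% it was 139, the median share of quality barcodes 0.292%, and only NEJ677 kept enough cells for the comparison of types, which then called 181 genes for cDC1-type and 265 for cDC2-type. With at least 3 UMIs of the dendritic cell genes, again with NEJ677 alone, it called 143 and 184 genes. NEJ677 alone at the limits as reported called 96 and 123, and the cause of the further rise was not tested. With a class II limit of 1% or a mean over cells, 3 genes stood above every comparator in place of 5. A pseudocount of 1 CPM called 39 and 72 genes for the types, and 50 CPM called 3 and 10, with 1 above every comparator. Each member thinned to 1000 UMIs left a median mature-type share of 0 and a median cDC1-type share of 88.2% in place of 75.2%. Leaving out NEJ723 gave 51 genes for cDC1-type and 67 for cDC2-type, with all 21 and 42 among them, and leaving out NEJ677 gave 32 and 68, with 19 and 41 among them. Leaving out NEJ638 gave 31 and 57, with 19 and 42 among them. These alternatives were chosen after seeing the data, in which 2 libraries in place of 3 have to show the difference. Types were compared within each of the 3 libraries with at least 10 members of both. No paired test over those libraries was run, since the labels put none in a group and give no replicate numbers. NEJ709 had only 9 members, and in NEJ634 the median member had 2170 UMIs, so a gene at 0 in a member may be a gene missed. Doublet scores removed 7 members (341 left) and moved no count past 1.5 times. The median mature-type share was then 6.62% in place of 8.19%. The genes called for mature-type members were not counted again without the removed members. Of 84 levels of named genes, 77 stayed within their interval with CPM over all UMIs and 63 with a mean over cells.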
